A study of Mus musculus with 42 samples.

Results

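The comparison of 1% acetophenone (ACT) with no odor covers all 1088 intact mouse odorant receptor (OR) genes, each counted in 6 of the 42 libraries of the series. The 1% ACT group holds 3 C57BL/6 mice of 20 to 22 days that were exposed for 1 h to ACT on filter paper at a starting concentration of 1% (v/v). Its control group holds 3 no odor mice, and each litter, numbered 1 to 3, gave 1 mouse to either group, so every odor library has a no odor library of a littermate. For comparison, mice of the same strain and age were exposed to 0.1% ACT or to 1% or 0.1% trimethylthiazoline (TMT), 3 mice each, and each of these experiments had 3 no odor littermates of its own. The 3 mice of 100% ACT came from the litters of the 1% ACT mice and share their no odor mice. Dorsal and ventral epithelium of mice without odor, 3 libraries each, were used to call ORs dorsal, ventral or neither. Apart from the dorsal and ventral libraries, the olfactory epithelium of 1 mouse was the source of each library. For the odor libraries and their no odor libraries, RNA was captured with an antibody to phosphorylated ribosomal protein S6 (pS6) and sequenced (pS6-IP-Seq). The dorsal and ventral libraries were made from extracted RNA without this capture. The question was which ORs mark the neurons that ACT activates at this concentration.

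ORs are G protein-coupled receptors, and each mature olfactory sensory neuron expresses a chosen OR gene from a large repertoire. When an odorant opens the signalling cascade of a neuron, ribosomal protein S6 becomes phosphorylated, and an antibody to pS6 pulls down ribosomes together with the mRNA they carry. The OR mRNA of activated neurons is thereby enriched, so a rise of an OR in this assay marks neurons that expressed that OR. Because whole epithelium was used, a larger number of labelled neurons and more captured RNA per neuron cannot be told apart. ACT is a sweet, floral ketone widely used in olfactory work, and TMT is a component of fox odor that rodents avoid.

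The no odor libraries held 37012 to 52708 counts on ORs, and the 1% ACT libraries held 66016 to 69789. Of the ORs, 14 had no count in the 6 libraries, and 653 had a mean of at least 20 normalized counts. A normalized count is scaled to a common library size within each comparison, so different comparisons are on different scales. The tables hold intact ORs only, so markers of other cell types and activity genes were not analysed here, and the labelled tissue was checked only by the presence of 1011 to 1041 ORs per library. The mouse labelled 1% ACT in litter 1 stood apart. Over those 653 ORs, the log2 levels of its library correlated at 0.914, 0.923 and 0.891 with the 3 libraries of 1% TMT (Pearson's r, across ORs, which are not independent replicates). Its correlations with the 1% ACT libraries of litters 2 and 3 were 0.777 and 0.739, and with its own no odor littermate 0.824. The libraries of litters 2 and 3 correlated with each other at 0.877 and with the 1% TMT libraries at 0.74 to 0.802. This library is therefore named below as the library labelled 1% ACT of litter 1, its values are given for what they are, and values without that litter stand beside the results. The litter was set apart by its counts, so p-values without it are not an independent test. Why this library differed was not tested.

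The change within a litter is given as the log2 ratio of normalized counts, with 1 added to each, in the odor library over the no odor littermate. Lists of ORs called in other mice against other no odor littermates separated litter 1 from the other litters. The 7 ORs called higher at 0.1% ACT, 0.643% of those tested, were Olfr923, Olfr983, Olfr1377, Olfr145, Olfr901, Olfr889 and Olfr1026. Their median change was -0.07 in litter 1, 1.31 in litter 2 and 2.64 in litter 3, against 0.01, 0.00 and 0.03 over all ORs. Of the 7, 3 were above 0 in litter 1, with changes from -1.08 to 0.46, while all 7 were above 0 in litter 2 and in litter 3. The 51 ORs called higher at 1% TMT, 4.69% of those tested, went the other way. Their median was 1.96 in litter 1, 0.27 in litter 2 and 0.24 in litter 3. In litter 1 all 51 were above 0 and 38 rose at least 2-fold, while 6 did so in litter 2 and 7 in litter 3. Among all ORs, 10.1% rose at least 2-fold in litter 1, 9.19% in litter 2 and 11.4% in litter 3. The 2 lists share 0 ORs.

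**Figure D1:**
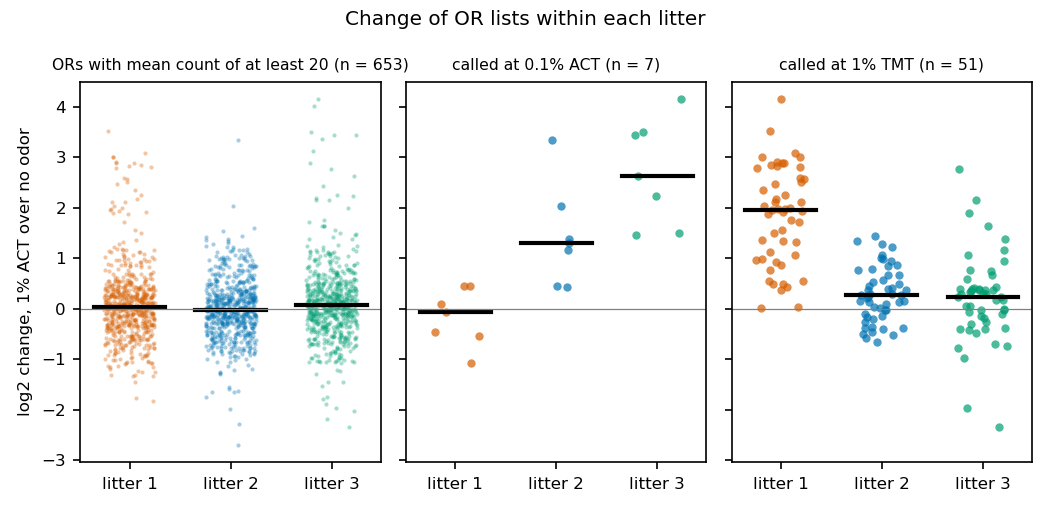
Log2 change of 1% ACT over no odor within each litter, 1 point per OR and a black bar at the median, for 653 ORs whose mean was 20 normalized counts or more, the 7 ORs called at 0.1% ACT and the 51 ORs called at 1% TMT. The ORs of 0.1% ACT sit around 0 in litter 1 and above 0 in litters 2 and 3, while those of 1% TMT are raised in litter 1, with a median of 1.96.

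The 15 ORs called at 0.1% TMT had medians of 2.78, 0.42 and 0.05 in litters 1, 2 and 3. In the 3 litters exposed to 1% TMT itself, the 51 ORs had median changes of 1.88, 1.83 and 1.91, close to the 1.96 of litter 1 here. The 7 ORs of 0.1% ACT had medians of -0.24, -0.14 and -0.83 in those litters. Over the 653 ORs, the changes in litter 1 correlated with those of the 1% TMT litters at 0.585, 0.552 and 0.391, and with those of the 0.1% ACT litters at -0.037, -0.1 and -0.051. By rank the values of litter 1 against 1% TMT were lower, with Spearman's rho of 0.364, 0.301 and 0.189. Those of litter 3 against 0.1% ACT were 0.142, -0.017 and 0.153, and litters 2 and 3 had a rho of 0.126. For litter 3 the values were -0.038, -0.053 and 0.057 against 1% TMT and 0.387, 0.203 and 0.176 against 0.1% ACT. Litter 2 had 0.147, 0.059 and 0.085 against 1% TMT and 0.282, 0.037 and 0.08 against 0.1% ACT. By rank its values were 0.121, 0.053 and 0.128 against 1% TMT and 0.165, -0.078 and 0.102 against 0.1% ACT. By rank litter 2 was thus not nearer to either odorant, and its rho with litter 1 was 0.099. The values that follow are again Pearson's r. Litters 2 and 3 correlated at 0.281, and litter 1 correlated with them at 0.129 and -0.066. Points of a litter share its no odor library, and these values describe ORs within libraries. Without the 51 ORs of 1% TMT, over 606 ORs, the correlations of litter 1 with the 1% TMT litters fell to 0.212, 0.123 and 0.007.

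**Figure D2:**
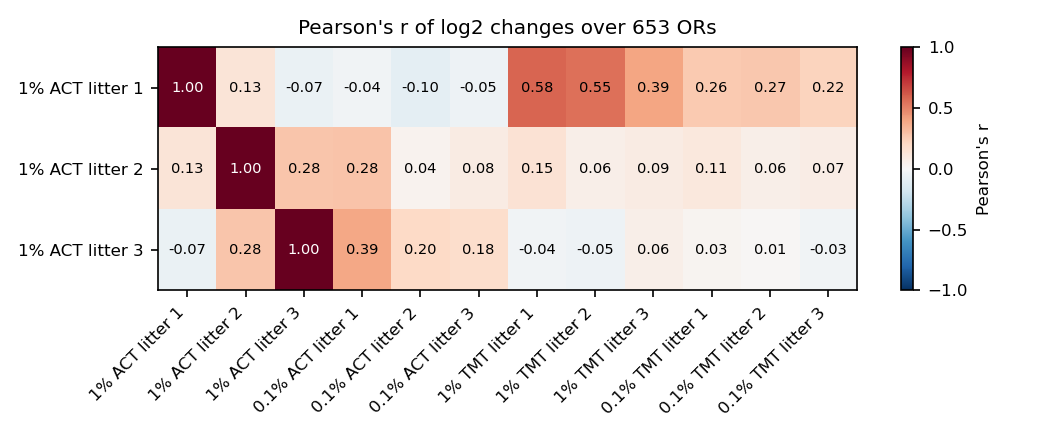
Pearson's r of the log2 changes of 653 ORs between each 1% ACT litter (rows) and the litters of 1% ACT, 0.1% ACT, 1% TMT and 0.1% TMT (columns). Litter 1 has its highest values with 1% TMT, from 0.391 to 0.585, and litters 2 and 3 have theirs with litter 1 of 0.1% ACT, at 0.282 and 0.387.

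Across the 3 litters, edgeR's quasi-likelihood test with litter as a block called 15 ORs higher, 1.38% of those tested, and 3 lower, 0.276% (Benjamini-Hochberg adjusted p below 0.05 over 1088 ORs). An unadjusted p under 0.05 was reached by 48 ORs on the higher side and by 32 on the lower. The 15 were Olfr31, Olfr56, Olfr136, Olfr164, Olfr165, Olfr376, Olfr430, Olfr478, Olfr744, Olfr881, Olfr888, Olfr913, Olfr1353, Olfr1471 and Olfr1474. They fell into unlike sets once each litter was read. In 9 of the 15 the largest change was in litter 1, and all 9 were also called at 1% TMT. In the other 6, Olfr430, Olfr478, Olfr744, Olfr881, Olfr888 and Olfr913, it was in litter 2 or 3. Of these, 0 were called at 1% TMT, which is near the 4.69% of all ORs. Of the 15, 13 were raised in every litter, and in 9 the 3 odor libraries lay above the 3 no odor libraries, which held for 4.32% of all ORs. None of the 15 was among the 7 ORs called at 0.1% ACT, which is near the 0.643% of all ORs on that list. The number of calls depended on the fit: DESeq2 called 3 ORs higher, a fit without robust variance 0, and a joint fit with the 100% ACT libraries 1. Without litter 1 the test called 19 ORs higher and 2 lower, without litter 2 it called 0, and without litter 3 it called 14 higher and 3 lower.

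**Figure D3:**
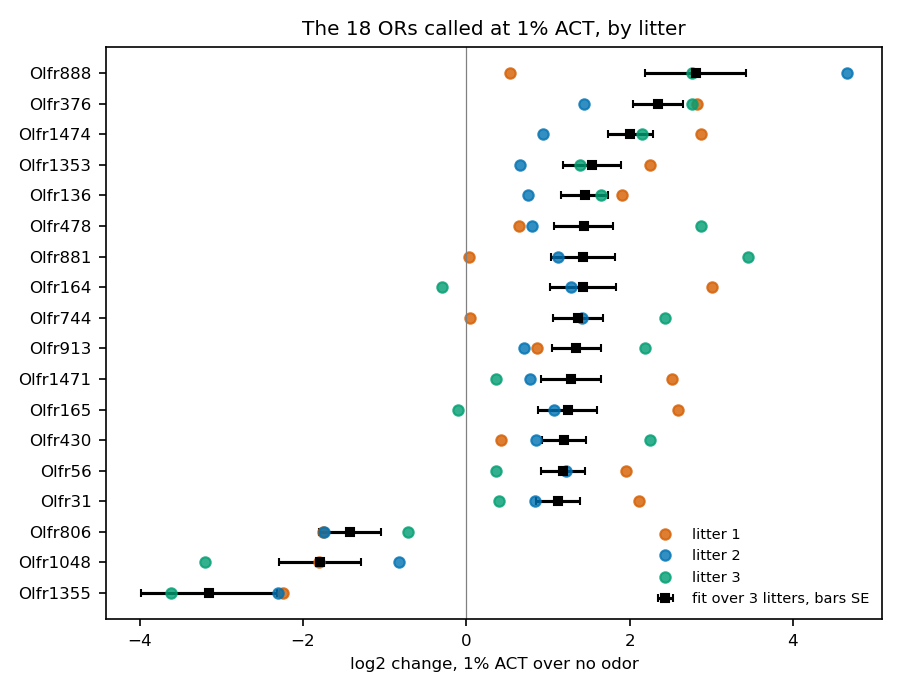
Log2 change of 1% ACT over no odor for the 18 called ORs, with 1 coloured point per litter and a black square for the fit over 3 litters (bars, SE of the fit, not the spread among litters). Among the 15 ORs called higher, litter 1 is the highest point for 9, such as Olfr164 at 3.01, and close to 0 for Olfr744 and Olfr881, at 0.05 and 0.03.

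The ORs that rose in every litter were led by Olfr376, a dorsal class II OR that cultured cells also show to be activated by ACT. It had 121.1, 116.9 and 116.6 normalized counts in the no odor libraries of litters 1, 2 and 3 and 863.5, 319.3 and 796.1 in the odor libraries. All odor libraries were above all no odor libraries, and Olfr376 was the only OR with a mean of at least 20 that rose at least 2-fold in each of the 3 litters. Its log2 fold change was 2.35 ± 0.31 (SE of the fit, n = 3 litters, adjusted p = 1.25e-10), and 2.09 without litter 1 (adjusted p = 1.74e-07). Here and below the SE comes from the test, with variance shared over ORs, and is not the spread among litters. Olfr376 was also raised at 1% TMT, by 2.65 ± 0.26, with 600.5 to 798.8 normalized counts. The coding sequence shares 19.2% of its 50-base stretches, the read length of these libraries, with Olfr20, and reads from those stretches cannot be assigned to either gene by sequence.

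Olfr1474 had 40.4, 41.9 and 38.5 normalized counts without odor and 303.9, 81.4 and 174.3 with it. The groups did not overlap, and the litter 2 library was the lowest of the odor group. The log2 fold change was 2.01 ± 0.28 (adjusted p = 8.71e-10), and 1.55 without litter 1 (adjusted p = 0.000648). Olfr136, activated by ACT in cultured cells, went from 135.5, 117.8 and 158.5 to 511.4, 199.6 and 500.2. Here, too, every odor library exceeded every no odor library, and the call held without litter 1 (log2 fold change 1.20, adjusted p = 0.0131) but not without litter 3 (1.34, adjusted p = 0.0587) or in the joint fit with 100% ACT (1.43, adjusted p = 0.13). DESeq2 called the same 3 ORs, Olfr136, Olfr376 and Olfr1474, and no other. All 3 were called at 1% TMT as well. Olfr136 shares 11% of its 50-base stretches with Olfr138.

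Olfr1474 (chr19:13469565-13472157, plus strand, GRCm38) and its neighbour Olfr1471 (chr19:13443409-13451527, plus strand) were both among the 15, and their coding sequences are identical at 915 of 942 bases (97.1%). Of the 50-base stretches of Olfr1474, 24.3% also occur in Olfr1471. Reads from those stretches cannot be assigned to either gene by sequence, and how far this ties their counts together was not tested. The sequences below give an identical and a differing stretch. The coding start, bases 1 to 30, is the same in both genes, and the window from base 415 to 444 is the one with most differences, which are in capitals (RefSeq GRCm38 genome, 5′ to 3′, coding strand).
Olfr1471, chr19:13445014-13445043: atggagaatatttcagaggttactgaattt
Olfr1474, chr19:13470972-13471001: atggagaatatttcagaggttactgaattt
Olfr1471, chr19:13445428-13445457: tgcattctaattgtcacCtgCtgctacaTG
Olfr1474, chr19:13471386-13471415: tgcattctaattgtcacTtgGtgctacaCT

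The first window is the same in both genes, and the second holds 4 bases that tell them apart. Olfr1471 had 18.7, 14.6 and 21.5 normalized counts without odor and 112.1, 25.8 and 28.1 with it. Its rise was largest in litter 1, at 2.52 log2, and was 0.78 and 0.37 in litters 2 and 3. Olfr1474 rose by 2.15 in litter 3, where Olfr1471 rose by 0.37. The paralogues moved by unequal amounts in that litter.

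Litters 2 and 3 raised ORs that the library labelled 1% ACT of litter 1 did not. Olfr923, which the study singled out as a sensitive ACT receptor, had 46.1, 58.4 and 74.7 normalized counts without odor. With odor it had 63.9 in litter 1, 604.2 in litter 2 and 1351.7 in litter 3. The counts behind these values were 65, 772 and 1489. The change was 0.46 log2 in litter 1 (95% exact binomial interval of the ratio without an added count, -0.16 to 1.13), 3.35 in litter 2 (2.99 to 3.77) and 4.16 in litter 3 (3.82 to 4.56). The intervals cover counting error only and do not overlap between litter 1 and the other litters. Over 3 litters the log2 fold change was 2.83 ± 0.97 with an adjusted p of 0.664, so the OR with the largest change in litters 2 and 3 was not called. Without litter 1 it was 3.76 (adjusted p = 7.34e-21). In the study's own fit Olfr923 was significantly enriched at 1% ACT, unlike in the fit over 3 litters here. The study's pS6 staining of Olfr923 neurons was also significantly raised at 1% ACT. In the 1% TMT libraries Olfr923 had 46.4, 63.2 and 25.5 normalized counts, as low as in litter 1 here. None of its 50-base stretches occurs in another OR.

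Olfr1377, a dorsal OR activated by ACT in cultured cells, had 47.6, 49.7 and 47.5 normalized counts without odor and 45.2, 206.6 and 525.6 with it. The no odor values were nearly equal, the odor value of litter 1 lay just under them, and those of litters 2 and 3 were 4.1-fold and 10.8-fold higher. Olfr145, described before as a receptor for ACT, had 70.6, 84.7 and 34.0 without odor and 48.2, 212.1 and 397.6 with it. Its change was -0.54 in litter 1 and 1.31 and 3.51 in litters 2 and 3. Neither was called over 3 litters (adjusted p = 0.893 and 0.986), and without litter 1 both were (log2 fold changes 2.74 and 2.34, adjusted p = 1.13e-11 and 1.34e-08).

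**Figure D4:**
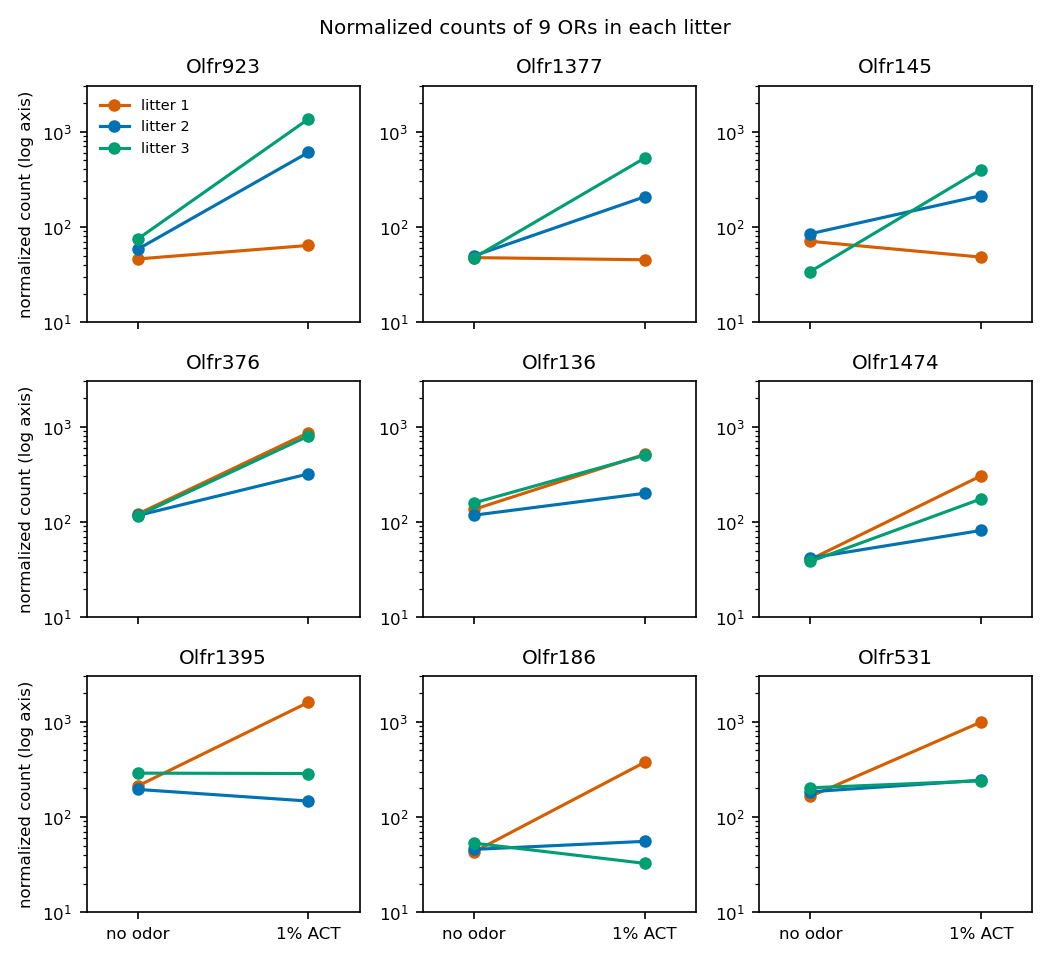
Normalized counts (log axis) of 9 ORs in the no odor and 1% ACT library of each litter, joined by a line per litter. Olfr923, Olfr1377 and Olfr145 are raised in litters 2 and 3 only, Olfr376, Olfr136 and Olfr1474 in all 3 litters, and Olfr1395, Olfr186 and Olfr531 chiefly in litter 1, where Olfr1395 reached 1596.2.

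Other ORs followed the same course. Olfr876 had 21.6 normalized counts in the odor library of litter 1, under its littermate's 47.6, and 90.0 and 253.3 in litters 2 and 3, over 30.2 and 23.8. Olfr874 had 39.3, 134.6 and 335.0 with odor and 53.3, 73.0 and 37.4 without. Olfr890 had 3.0, 43.0 and 69.9 with odor and 13.0, 18.5 and 3.4 without, so its litter 3 ratio rests on 3 no odor counts. In all 3 the odor library of litter 1 was below its littermate and those of litters 2 and 3 above theirs. Olfr1026 and Olfr889 had changes of -0.46 and -1.08 in litter 1, 1.17 and 1.38 in litter 2, and 2.64 and 2.23 in litter 3. Olfr983 and Olfr901, the remaining ORs of 0.1% ACT, moved less: 0.46 and 0.44 in litter 2 and 1.47 and 1.51 in litter 3, with adjusted p of 0.13 and 0.128 without litter 1. The study's pS6 staining was significantly raised at 1% ACT in the neurons of both. Litter 3 had the larger change for each of the 7 ORs of 0.1% ACT, and with 1 mouse per litter and odor no error can be put on that order.

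The 6 called ORs whose change was largest in litters 2 or 3 were low to moderate in count. Olfr744 had 44.7, 28.2 and 36.2 normalized counts without odor and 46.2, 77.5 and 200.6 with it (log2 fold change 1.37 ± 0.31, adjusted p = 0.00166). Olfr430 had 59.1, 83.8 and 72.4 without and 79.7, 151.8 and 348.6 with odor (1.20 ± 0.27, adjusted p = 0.00143). In Olfr744 all odor libraries exceeded the no odor libraries, and in Olfr430 the odor library of litter 1 lay within the range of the no odor group. Olfr913 rose from 13.0, 59.4 and 63.4 to 24.6, 97.8 and 293.2. Olfr888 rests on few counts, with 4, 0 and 5 reads without odor and 9, 31 and 49 with it. Olfr478 and Olfr881 had fold changes of 1.44 ± 0.36 and 1.43 ± 0.39 log2. All 6 were also called without litter 1, and none of the 6 was called without litter 3, with adjusted p from 0.132 for Olfr888 to 0.867 for Olfr881. Without litter 3 the log2 fold changes of Olfr430, Olfr478, Olfr744, Olfr881 and Olfr913 were 0.66, 0.76, 0.78, 0.64 and 0.79, and that of Olfr888 was 2.68.

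Without litter 1, 19 ORs were called higher, 1.75% of those tested, and 2 were lower, 0.184%. With 2 litters only 1 degree of freedom remains among the samples, and the p-values lean on the spread shared over ORs. Litter 1 was left out with its counts known, which also shapes the overlap with the 0.1% ACT and 1% TMT lists. Of the 19, 9 were among the 15 of all litters, 5 among the 7 of 0.1% ACT and 3 among the 51 of 1% TMT. The list was Olfr136, Olfr145, Olfr376, Olfr430, Olfr478, Olfr744, Olfr749, Olfr874, Olfr876, Olfr881, Olfr888, Olfr889, Olfr890, Olfr913, Olfr923, Olfr1026, Olfr1377, Olfr1467 and Olfr1474. By zone, 14 of the 19 were dorsal ORs, 1 was a ventral OR and 4 were neither. Of the 1088 ORs, 407 were dorsal, 404 ventral and 276 neither, and 1 was not listed. Without litter 3, by contrast, 14 ORs were called higher (1.29%), of which 2 were dorsal and 9 ventral, and 13 of the 14 were among the 51 of 1% TMT. The exception was Olfr923. The 2 leave-out lists shared 3 ORs, 15.8% of the 19 and 21.4% of the 14: Olfr376, Olfr923 and Olfr1474.

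Of the 19 ORs called without litter 1, 9 lay on chromosome 9, between 37745106 and 38830300 (GRCm38, GENCODE M21), a stretch of 1085 kb that holds 44 ORs of the table. In order they were Olfr874, Olfr876, Olfr145, Olfr881, Olfr888, Olfr889, Olfr890, Olfr913 and Olfr923. Chromosome 9 held 47.4% of the 19 and 11.9% of all ORs. Neighbouring ORs share sequence, and the share of 50-base stretches that occur in another OR was 23.6% for Olfr889, 16.8% for Olfr876, 16.1% for Olfr874, 15% for Olfr888, 13.9% for Olfr890 and 3.36% for Olfr881, while Olfr913, Olfr145 and Olfr923 share none. Olfr749, on another chromosome, shares 64.6% of its stretches with Olfr747. Without litter 3, 5 of the 14 ORs lay on chromosome 16, namely Olfr164, Olfr165, Olfr186, Olfr193 and Olfr196, over a span of 39886 kb. Chromosome 16 held 11 of the 51 ORs called at 1% TMT (21.6%) and 3.4% of all ORs.

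The ORs highest in litter 1 were largely those of TMT. Among the 653 ORs, 51 rose at least 2-fold in litter 1 (7.81%), 34 in litter 2 (5.21%) and 53 in litter 3 (8.12%). At least 2-fold lower were 3.83%, 2.91% and 3.98%. Of the 51 raised in litter 1, 34 (66.7%) were called at 1% TMT, which holds 7.2% of the 653. Of the same 51, 0 were called at 0.1% ACT, which holds 1.07% of the 653. In litters 2 and 3, 17.6% and 9.43% of the raised ORs were called at 1% TMT, and 5 and 7 of the 7 ORs of 0.1% ACT were among them. Litters 2 and 3 shared 13 raised ORs, 38.2% of litter 2 and 24.5% of litter 3. Litter 1 shared 5 with litter 2 and 6 with litter 3, 9.8% and 11.8% of its own.

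**Figure D5:**
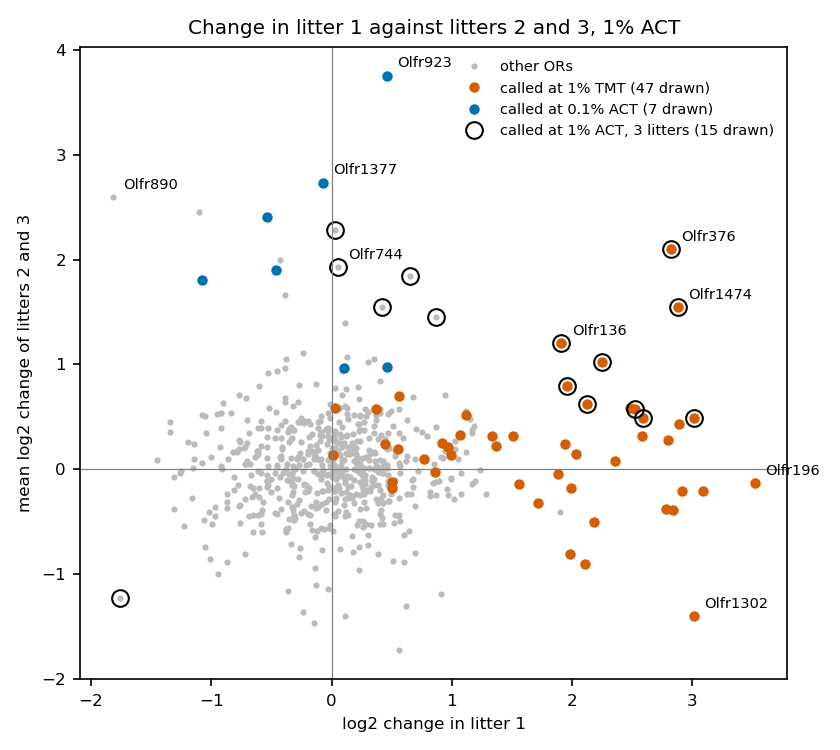
Log2 change of each of 653 ORs in litter 1 (x axis) against the mean log2 change of litters 2 and 3 (y axis), with ORs called at 1% TMT, ORs called at 0.1% ACT and ORs called over the 3 litters marked. ORs of 1% TMT extend along the x axis, those of 0.1% ACT along the y axis, and Olfr376 is high on both.

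Olfr1395, named by the study for TMT, had 211.9, 194.8 and 288.7 normalized counts without odor and 1596.2, 147.1 and 286.0 with it. It rose 7.5-fold in litter 1 and was at or under its littermate in litters 2 and 3. The 1% TMT libraries held 1218.8, 1198.2 and 1098.0 normalized counts of Olfr1395. Olfr186 had 43.2, 45.8 and 53.2 without odor and 374.7, 55.6 and 32.7 with it. Olfr196 had the largest change of litter 1 among these 653 ORs, from 27.4 to 323.6, a log2 change of 3.52, and changed by 0.50 and -0.77 in litters 2 and 3. Neither Olfr1395, Olfr186 nor Olfr196 was called over 3 litters (adjusted p = 0.986, 0.99 and 0.99). None of the 50-base stretches of Olfr1395 or Olfr186 occurs in another OR.

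Olfr531, also named by the study for TMT, had 989.4 normalized counts with odor in litter 1 and 243.4 and 239.7 in litters 2 and 3, over 164.3, 184.1 and 202.6 without. Its log2 fold change of 1.05 ± 0.32 had an adjusted p of 0.0676. Olfr1297 had 353.1, 51.7 and 33.6 with odor and 50.4, 68.2 and 44.1 without. Olfr1352 had 583.2, 79.8 and 68.1 with odor and 77.8, 59.4 and 49.8 without. In each, litter 1 held the only large rise. Olfr173, Olfr1302 and Olfr61, the others among the 10 largest changes of litter 1, had changes of 2.84, 3.01 and 2.80 there and of 0.38 or less in the other litters. The lowest of these was -2.35, for Olfr1302 in litter 3. Olfr164, Olfr165, Olfr31 and Olfr56, called over 3 litters, had changes of 3.01, 2.59, 2.12 and 1.96 in litter 1, of 1.28, 1.07, 0.84 and 1.22 in litter 2, and of -0.30, -0.10, 0.40 and 0.37 in litter 3. None of these 4 was called without litter 1, with adjusted p from 0.522 to 0.98.

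The 3 ORs called lower had few counts. Olfr1355 had 9, 16 and 10 reads without odor and 2, 3 and 0 with it. Olfr1048 had 16, 38 and 22 without and 6, 26 and 2 with odor, and Olfr806 had 41, 32 and 39 without and 17, 11 and 29 with odor. On the normalized scale every odor library lay below every no odor library in all 3, which held for 3.95% of all ORs. The log2 fold changes were -3.15 ± 0.83, -1.79 ± 0.50 and -1.42 ± 0.38 (adjusted p = 0.0133, 0.0248 and 0.0136). Olfr1355 shares 39.6% of its 50-base stretches with Olfr8 and Olfr806 shares 36.1% with Olfr805, so their counts are uncertain, whereas Olfr1048 shares none. None of the 3 was called without litter 1 (adjusted p = 0.0573, 0.0721 and 0.243) or by DESeq2. A filter at a mean count of 10 removed Olfr1355, and Olfr1048 and Olfr806 were not called after it (adjusted p = 0.144 and 0.0614). The 2 ORs called lower without litter 1, Olfr578 and Olfr676, were named after their values were seen. Their no odor libraries of litter 3 held 673.5 and 165.3 normalized counts, against 161.4 and 161.7, and 21.6 and 46.7, in the other litters. The changes were -0.77 and -1.27 in litter 2 and -2.03 and -2.19 in litter 3.

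The responses to 1% ACT and 1% TMT were compared in a fit of 12 libraries, in which each odorant has its own no odor littermates. With all litters, 0 ORs had a higher response to ACT (0%) and 2 had a lower response (0.184%). At an unadjusted p under 0.05 there were 22 and 32, and DESeq2 called 0 higher and 0 lower. The 2 ORs were Olfr1160, with a difference of -2.72 ± 0.54 log2 (adjusted p = 0.00442), and Olfr330, with -1.60 ± 0.37 (adjusted p = 0.0325). Olfr1160 had 25.9, 19.5 and 15.8 normalized counts without odor and 102.3, 21.9 and 20 with ACT, and rose from 8.4, 6.0 and 9.4 to 97.0, 87.9 and 104.1 with TMT. Olfr330 had 134.0, 99.3 and 106.4 without odor and 266.5, 122.1 and 104.4 with ACT. With TMT it rose from 89.3, 95.5 and 55 to 331.7, 308.4 and 300.3. Of the read-length stretches of Olfr330, 58.1% occur in another OR, with 42.6% in Olfr331, so its counts are uncertain. For Olfr1160 the share was 21.1%, with 20% in Olfr1154. Reads from those stretches cannot be assigned to either gene by sequence.

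Without litter 1 of ACT, the same fit called 12 ORs higher (1.1%) and 28 lower (2.57%) for ACT than for TMT. That litter was left out because its counts resembled 1% TMT. The choice partly sets these differences, and their p-values are not an independent test. The 12 were Olfr145, Olfr430, Olfr478, Olfr744, Olfr749, Olfr874, Olfr876, Olfr881, Olfr888, Olfr889, Olfr923 and Olfr1377, of which 11 were dorsal ORs and 0 were ventral. The largest difference with many counts was that of Olfr923, 4.70 ± 0.43 log2 (adjusted p = 4.8e-23), followed by Olfr1377 at 3.24 ± 0.43 (adjusted p = 2.87e-11). Part of the difference of Olfr923 is its fall at 1% TMT, by 0.97 log2 (adjusted p = 0.0193), where the no odor libraries held 56.4, 78.8 and 140.8 normalized counts. Among the 28, 17 were ventral and 4 dorsal. Olfr1297 differed by -3.16 ± 0.43, Olfr186 by -3.05 ± 0.44 and Olfr1395 by -2.68 ± 0.40. For Olfr376 the difference was -0.58 ± 0.40 (adjusted p = 0.851) and for Olfr136 it was -0.40 ± 0.39 (adjusted p = 1), so no difference between the odorants was detected for the ORs raised by both, which does not show that the responses were equal.

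Between 1% ACT and 0.1% ACT no difference of response was called, with litter 1 (smallest adjusted p = 0.523) or without it (1). At an unadjusted p under 0.05, 19 responses were higher and 23 lower at 1%, and DESeq2 also called 0. Olfr923 rose by 3.75 ± 0.42 at 0.1% and by 3.35 and 4.16 in litters 2 and 3 at 1%. Olfr376 rose by 0.58 ± 0.29 at 0.1% (adjusted p = 1), and the difference between concentrations was 1.79 ± 0.46 (adjusted p = 0.523), and 1.53 ± 0.50 without litter 1 (adjusted p = 1). Olfr983 went the other way, with a rise of 2.42 at 0.1% and a difference of -1.71 ± 0.46 (adjusted p = 0.523), and of -1.46 ± 0.49 without litter 1 (adjusted p = 1). The 100% ACT libraries come from the same litters and share the no odor mice, so their values stand only beside these. There, Olfr923 had 88.8, 151.8 and 602.7 normalized counts in litters 1, 2 and 3, over 39.3, 49.9 and 68 without odor. Olfr1377 had 41.1, 69.7 and 200.9, over 40.6, 42.4 and 43.3. These counts are on the scale of the 100% ACT comparison, so the same no odor libraries have other values above. The 7 ORs of 0.1% ACT had median changes of -0.43, 0.3 and 2.19 at 100% ACT. At 1% ACT these medians were -0.07, 1.31 and 2.64, so litter 1 was lowest and litter 3 highest at both concentrations. The 51 ORs of 1% TMT had median changes of 1.06, 0.28 and 0.24 at 100% ACT and 1.96, 0.27 and 0.24 at 1% ACT, over the same no odor library in each litter.

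Lists of ORs made by other assays were read by their counts and medians, beside 1.38% called higher and a median log2 fold change of 0.02 over all ORs. Of 106 ORs in the list used here that ACT activates in cultured cells expressing a single OR, 5 were called higher (4.72%), with a median of 0.11, and of 410 ORs tested there without activation, 4 were (0.976%), with a median of 0.04, and with total OR counts these medians turned to -0.03 and -0.10, beside -0.11 for all ORs. Without litter 1, the counts were 11 and 3, beside 1.75% of all ORs, and the medians of 0.02 and 0.03 no longer differed in that order. Of 86 ORs that an earlier pS6-IP study by Jiang et al. linked to ACT, 6 were called (6.98%), with medians of 0.15, 0.16 and 0.31 in litters 1, 2 and 3. Without litter 1, 13 of the 86 were called. A further list, in the study's table of them, holds 44 ORs whose mRNA fell after long exposure to ACT in the DREAM assay, which reads activation as a loss of OR mRNA. Of these 1 was called over 3 litters (2.27%) and 5 without litter 1, with medians of 0.03, 0.17 and 0.40 by litter.

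Zone and class gave small shifts. Dorsal ORs had a median of -0.08 and ventral ORs of 0.09, with 6 called higher in each (1.47% and 1.49%), and with total OR counts the medians were -0.22 and -0.06. Without litter 1 the medians were -0.05 and 0.06, with 14 dorsal ORs and 1 ventral OR called higher. Of the ORs raised at least 2-fold in litter 1, 11.8% were dorsal, against 44.1% in litter 2, 52.8% in litter 3 and 35.7% of the 653 ORs. Of 125 class I ORs in the table, the fish-like ORs that lie in a cluster on chromosome 7, 0 were called higher. That is near the 1.38% of all ORs, and the median was -0.18. Without litter 1, 0 were called higher, near the 1.75% of all ORs, and 2 lower. The 2 were Olfr578 and Olfr676, whose no odor library of litter 3 was high, at 673.5 and 165.3 normalized counts. The class I median without litter 1 was -0.12. The medians within litters were -0.29, -0.18 and 0.04.

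Some ORs known for ACT stayed low in count. Olfr160, also called M72 and shown by others to respond to ACT, had 17.3, 26.3 and 21.5 normalized counts without odor and 17.7, 24.3 and 39.0 with it, so the groups overlapped (log2 fold change 0.27 ± 0.41, adjusted p = 0.99). Olfr151, or M71, had 1 read in the 6 libraries, and no fold is given. The study corrected its gene definition of Olfr151 to Olfr160 before counting, so which gene each of these rows holds is uncertain. Olfr151 and Olfr160 share 40.3% of the 50-base stretches of Olfr151. The study named Olfr898, Olfr907 and Olfr30 for 100% ACT and reported that none of them was significantly enriched at 1% ACT. Here Olfr898 had 5, 0 and 6 reads without and 11, 8 and 15 with odor. Olfr907 had 0 without and 0, 6 and 1 with odor, and neither was called. Olfr30, activated in cultured cells, had 239.3, 191.9 and 217.3 without and 433.7, 149.5 and 267.8 with odor. Olfr1427, which the study named for 0.01% ACT, had 435.3, 398.3 and 423.4 without and 502.6, 347.5 and 522.0 with odor. Their groups overlapped, and neither was called (adjusted p = 0.986 and 1). The study's pS6 staining of Olfr1427 neurons was significantly raised at 1% ACT. Olfr506 and Olfr837, named by the study for 100% TMT, were not called at 1% ACT either (adjusted p = 0.923 and 0.99).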

How the data were processed

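The 6 pS6-IP-Seq libraries, 3 of 1% ACT and 3 of no odor littermates, were analysed, with the libraries of 0.1% and 100% ACT, 1% and 0.1% TMT and dorsal and ventral tissue for lists. The authors mapped reads with STAR to GRCm38 and deposited expected counts from RSEM, as whole numbers, for intact ORs annotated with their UTRs. Their fold changes, p-values and group means in the same tables were not used, and 0 count columns of the tables used were left out. Per the labels, the tools were STAR, RSEM and edgeR.

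Counts were tested with edgeR 4.0.16 in R 4.3.3 (glmQLFit, robust, and glmQLFTest, two-sided) with TMM over the ORs, no filter and the litter as a block. The Benjamini-Hochberg adjustment ran over all 1088 ORs. The SE is the log2 fold change divided by the square root of F, so it restates the test and does not measure the spread among litters. Differences of responses were interaction terms with 6 litters as blocks. Litters pair the samples by the study's design, and deviations of same-numbered libraries correlated at 0.162, 0.363 and 0.177. Replicates differed by more than sampling noise (chi-square per degree of freedom 3.91 to 16.6). DESeq2 1.42.0 and limma 3.58.1 (with edgeR), Python 3.11.15, numpy 2.4.6, pandas 2.3.3 and matplotlib 3.10.9 were used. The tests were checked on simulated data.

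Dorsal and ventral ORs were called by the same test. GENCODE M21 placed 1083 of the 1088 ORs. Bases came from RefSeq's GRCm38.p6. Shared stretches were counted over coding sequences. Named ORs are those called at 1% or 0.1% ACT, the 10 of smallest p at 1% TMT, the 10 of largest change in litter 1 and the 10 in litters 2 and 3 (mean of at least 20), ORs called in a difference of responses, 3 known ACT receptors and 14 ORs named by the study. ORs called only without a litter, such as Olfr749, Olfr1467 and Olfr193, were added after their values were seen. Members and lists were chosen with earlier results of these data known.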

Additional observations from a re-analysis of the deposited data

Results flagged for a closer look

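The response of Olfr1160 to 1% ACT was lower than its response to 1% TMT by a tested difference of -2.72 log2 (adjusted p = 0.00442). Olfr330 also had a lower response to ACT, with a difference of -1.60 log2 (adjusted p = 0.0325). Shared stretches of read length, whose reads cannot be assigned by sequence, made up 58.1% of those of Olfr330 and 21.1% of those of Olfr1160. Both were raised by TMT in all 3 litters, and in litter 1 of ACT their changes were 1.94 and 0.99, against 0.16 and 0.32, and 0.29 and -0.03, in litters 2 and 3. Groups of 3 mice are too small for the test of a stray sample, so litter 1 was not tested in that way.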

How the results depend on the processing

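The counts of called ORs moved with the fit. For 1% ACT, 15 ORs higher and 3 lower became 7 and 3 with edgeR's likelihood ratio test, 3 and 0 with DESeq2, 2 and 0 with no replicate block, 5 and 0 after a filter at a mean count of 10, 0 and 0 without robust variance, 1 and 0 in a joint fit with 100% ACT, and 12 and 5 with total OR counts. RLE scaling gave 11 and 3. Leaving out a litter gave 0 to 19 higher and 0 to 3 lower. Of 11 alternatives, Olfr376 was called in 9 and Olfr1474 in 8. Of the ORs followed through the alternatives, 0 changed direction.

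For the difference from 1% TMT, 0 higher and 2 lower became 0 and 0 with DESeq2, 0 and 0 with no replicate block, and 0 and 1 after the filter. Leaving out an ACT litter gave 0 to 12 higher and 0 to 28 lower, and leaving out a TMT litter gave 0 to 1 higher and 1 to 2 lower. No alternative called a difference from 0.1% ACT.

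With total OR counts the median of all ORs moved from 0.02 to -0.11, so medians of lists are read against it: dorsal -0.22, ventral -0.06, activated in vitro -0.03, not activated in vitro -0.10 and Jiang et al. 0.04. Leaving out a litter gave medians of 0.00 to 0.00 for all ORs, 0.02 to 0.29 for ORs activated in vitro, 0.01 to 0.03 for those not activated, 0.19 to 0.31 for Jiang et al. and 0.02 to 0.40 for DREAM. The medians by litter of the 0.1% ACT and 1% TMT lists kept their order with a pseudocount of 5 and with total OR counts. The cause of these shifts was not tested. Depth limits the rarer ORs, since 653 of 1088 reached a mean of 20 normalized counts.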
